A study of Homo sapiens with 6 samples.

Results

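The genes described here are 10 genes of the cellular response to low oxygen, namely VEGFA, CA9, ADM, BNIP3, NDRG1, ANKRD37, EGLN3, PDK1, SLC2A1 and HIF1A. They were taken by name from a table of 58051 genes, after its Ensembl identifiers had been matched to gene symbols, and all 10 were present. The table holds RNA counts for 6 libraries from DLD-1, a cell line of human colorectal adenocarcinoma, in which both copies of TPR carried an auxin-inducible degron with the NeonGreen fluorescent protein and TIR1 was expressed from the RCC1 locus. TPR is a protein of the nuclear pore basket, and auxin with TIR1 leads to its degradation. Every culture received 200 nM Leptomycin B, an inhibitor of the export receptor CRM1, for 3 h according to the design text of the series, although the sample titles give 2 h. In the group LMB (n = 3) nothing was added, and in the group LMB+auxin (n = 3) 1 mM auxin was present for the last 2 h. Libraries are numbered 1, 2 and 3 in each group, and the study describes them as independent biological replicates. The question asked of the genes was whether they varied more between the replicate numbers or between the groups. Cells given neither agent, or auxin by itself, were not analysed here.

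Cells sense oxygen through the α subunits of the hypoxia-inducible factors (HIF). When oxygen is present, prolyl hydroxylases of the EGLN family mark HIF-1α, the product of HIF1A, for destruction by the VHL ubiquitin ligase. When oxygen falls the α subunit persists, pairs with ARNT and binds DNA at short elements with the core ACGTG or GCGTG. The genes switched on in this way supply glucose, divert pyruvate from the mitochondria, promote vessel growth and regulate pH, and EGLN3 feeds back on the factor itself. HIF-1α is controlled mainly at the protein level, which these counts do not measure.

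RefSeq promoters (GRCh38.p14, 250 bases before to 50 bases after the start) were found for 8 of the 10 genes, and not for VEGFA and NDRG1. In the sequences below, capitals mark ACGTG or GCGTG read on either strand, so that CACGT and CACGC are the same cores on the other strand and CACGTG holds a core on both. They are shown because PDK1 and SLC2A1 were among the genes that differed between the replicate numbers, ANKRD37 had the narrowest range between them, and CA9, a classical HIF target, was almost silent. PDK1 has 2 listed promoters, and the one shown lies on the plus strand at chr2:172555840-172556139. The other, at chr2:172555123-172555422, spans the annotated gene start and has neither core. The window shown for SLC2A1 lies on the minus strand at chr1:42958819-42959118, that of ANKRD37 on the plus strand at chr4:185396591-185396890 and that of CA9 on the plus strand at chr9:35673678-35673977.
PDK1: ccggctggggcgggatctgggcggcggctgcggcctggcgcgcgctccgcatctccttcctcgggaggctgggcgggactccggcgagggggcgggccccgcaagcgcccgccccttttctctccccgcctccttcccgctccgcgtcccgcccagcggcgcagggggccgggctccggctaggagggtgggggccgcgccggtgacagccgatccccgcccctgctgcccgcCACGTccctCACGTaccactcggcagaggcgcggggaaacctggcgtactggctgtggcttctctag
SLC2A1: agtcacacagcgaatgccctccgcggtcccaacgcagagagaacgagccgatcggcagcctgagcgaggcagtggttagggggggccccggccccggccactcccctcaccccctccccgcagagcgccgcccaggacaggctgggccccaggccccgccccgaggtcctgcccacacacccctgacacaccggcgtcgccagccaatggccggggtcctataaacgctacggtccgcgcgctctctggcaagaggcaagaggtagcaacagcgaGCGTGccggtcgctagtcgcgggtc
ANKRD37: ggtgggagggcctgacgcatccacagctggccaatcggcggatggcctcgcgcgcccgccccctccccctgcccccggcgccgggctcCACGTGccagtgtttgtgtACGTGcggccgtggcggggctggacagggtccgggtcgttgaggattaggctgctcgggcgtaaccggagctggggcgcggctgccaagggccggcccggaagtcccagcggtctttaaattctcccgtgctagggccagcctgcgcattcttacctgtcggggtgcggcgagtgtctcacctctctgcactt
CA9: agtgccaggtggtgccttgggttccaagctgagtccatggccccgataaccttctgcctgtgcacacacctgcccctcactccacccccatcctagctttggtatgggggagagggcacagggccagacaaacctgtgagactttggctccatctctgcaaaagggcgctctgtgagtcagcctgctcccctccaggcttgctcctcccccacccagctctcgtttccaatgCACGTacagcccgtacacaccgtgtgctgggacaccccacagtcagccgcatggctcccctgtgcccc

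The core ACGTG, on either strand, was present in 4 of the 10 listed promoters of the 8 genes (1 each of PDK1, ANKRD37, CA9 and BNIP3), beside 21.4% of all 35116 promoters in the RefSeq table. PDK1 and HIF1A have 2 listed promoters each and the other genes 1. With GCGTG also allowed, SLC2A1, ADM and 1 promoter of HIF1A had a match as well, and 48.4% of all promoters did. The promoter of EGLN3 had neither core in this window. These are matches of letters in the window and not binding sites.

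Per length of their canonical transcript the genes covered a wide range of levels. In LMB, SLC2A1, the glucose transporter GLUT1, stood at 89.5 ± 4.92 FPKM (SD, n = 3) and HIF1A at 58.4 ± 2.45. ANKRD37, an ankyrin repeat protein, was at 16.9 ± 0.397 FPKM. VEGFA at 7.11 ± 1.58 FPKM, ADM at 6.12 ± 0.878, NDRG1 at 5.79 ± 1.97 and EGLN3 at 4.50 ± 0.479 formed a group in which neighbours differed by less than the larger of their SDs. PDK1 followed at 1.38 ± 0.237 FPKM, BNIP3 at 0.442 ± 0.142 and CA9 at 0.0351 ± 0.0429. In LMB+auxin the levels fell in the same order except that ADM, at 6.82 ± 0.576 FPKM, came before VEGFA at 6.32 ± 1.54, which lay within the SD of VEGFA. Values in the rest of the text are CPM, the reads of a gene scaled to the depth of its library, which are comparable for 1 gene between libraries.

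Of the 10 genes, 8 passed the filter of more than 1 CPM in at least 3 libraries and were tested with 16974 genes in all. A gene was called where the Benjamini-Hochberg adjusted p from edgeR's quasi-likelihood test was under 0.05 and the difference was at least 1.3-fold. No member was called between LMB+auxin and LMB, where 0.00589% of all tested genes (1 gene, LINC02029, named here after its result was seen) were called, and none reached an unadjusted p under 0.05, which 4.37% of all genes did. DESeq2 and limma-voom also called none of them, and called 11 and 1 of all genes. None of these 3 fits took account of the replicate numbers. With the replicate number as a block, edgeR called no member either, where 1.18% of all genes were called. SLC2A1 then passed the adjusted p alone (edgeR adjusted p = 0.00882). Between the replicate numbers 2 of the 8 members were called, NDRG1 and VEGFA, where 14.3% of all tested genes were called. PDK1 and SLC2A1 passed the adjusted p but not the fold, which makes 4 of 8 by adjusted p alone against 33.7% of all genes.

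NDRG1, a stress-response gene of the plasma membrane and cytoplasm that hypoxia induces in many cell types, varied most between the numbers. It is ENSG00000104419 on the minus strand of chromosome 8 at 133237175 to 133302022 (GRCh38). Its level was 14, 24.4 and 14.1 CPM in LMB replicates 1, 2 and 3, and 12.7, 24.2 and 13.5 CPM in LMB+auxin. Both libraries of number 2 stood well above the other 4, and each number gave nearly the same value in the 2 groups. The fitted range between the numbers was 0.86 on the log2 scale, or 1.82-fold (edgeR adjusted p = 7.5e-17). Without a replicate block, LMB+auxin differed from LMB by -0.06 ± 0.30 (SE, edgeR adjusted p = 0.990). The error of that fit includes the spread between the numbers. With the block, the fit that also gave the range, the group difference was -0.06 ± 0.07 (edgeR adjusted p = 0.649). Number 2 exceeded number 1 by 0.86 ± 0.09 (edgeR adjusted p = 2.1e-14), number 3 was below number 2 by a log2 difference of -0.81 ± 0.09 (adjusted p = 3.0e-13), and numbers 3 and 1 differed by 0.05 (adjusted p = 0.833).

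VEGFA encodes a secreted growth factor for endothelial cells and is ENSG00000112715, on the plus strand of chromosome 6 at 43770184 to 43786487. It read 24.0, 32.0 and 21.0 CPM in LMB and 21.6, 28.9 and 17.9 CPM in LMB+auxin. Number 2 was again highest in both groups, and LMB+auxin was below LMB within every number, by log2 differences of -0.15, -0.15 and -0.23, although the groups as a whole overlapped. The range between numbers was 0.65 (1.56-fold, edgeR adjusted p = 1.3e-10). The group difference was -0.17 ± 0.19 (adjusted p = 0.957), and with the replicate number as a block in edgeR it was -0.17 ± 0.07 (unadjusted p = 0.00877, adjusted p = 0.109).

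PDK1, the kinase that inhibits pyruvate dehydrogenase, is ENSG00000152256 on the plus strand of chromosome 2 at 172555373 to 172608669. Its values were 16.2, 22.8 and 19.3 CPM in LMB and 18.6, 22.3 and 20 CPM in LMB+auxin. Both number 2 libraries lay above the rest, by less than for NDRG1, and number 3 lay between numbers 2 and 1 in each group. The range between numbers was 0.38 (1.299-fold, edgeR adjusted p = 9.5e-04), just under the 1.3-fold threshold. The group difference was 0.06 ± 0.13 (edgeR adjusted p = 0.973), and 0.07 ± 0.07 with the replicate block (adjusted p = 0.608). PDK1 shares 3.00% of its exonic bases with the antisense gene PDK1-AS1.

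SLC2A1, ENSG00000117394 on the minus strand of chromosome 1 at 42925353 to 42958893, was the member for which the groups counted as much as the numbers. It had 284.9, 317.9 and 305.5 CPM in LMB and 311.3, 374.1 and 340.4 CPM in LMB+auxin. Within every number LMB+auxin was higher, by 0.13, 0.23 and 0.16 on the log2 scale, and the groups overlapped only because LMB replicate 2 exceeded LMB+auxin replicate 1. Without the block the difference was 0.18 ± 0.08 (edgeR adjusted p = 0.954). With the replicate block it was 0.17 ± 0.04 (edgeR adjusted p = 0.00882), a rise that passed the adjusted p and stayed below 1.3-fold. In that fit 4.36% of all genes passed the adjusted p alone (1.11% higher and 3.25% lower), and SLC2A1 was the only one of the 8 members that did. The range between the numbers was 0.21 (1.16-fold, edgeR adjusted p = 0.0039), with number 2 highest in both groups.

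**Figure D1:**
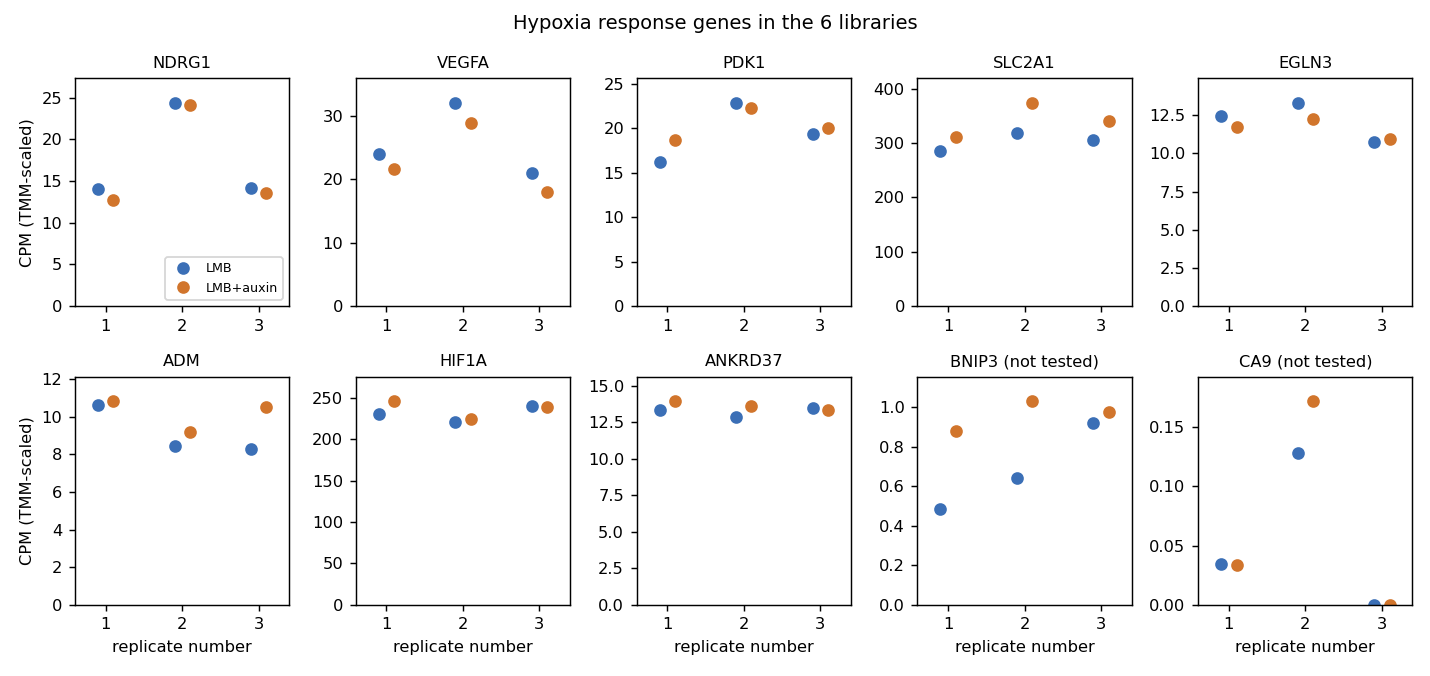
Level in CPM (y axis, from 0, a separate scale in each panel) of each of the 10 genes against replicate number (x axis), with 1 point per library, LMB and LMB+auxin in different colours. In the panels of NDRG1, VEGFA and PDK1 both points of number 2 sit above the other 4, and for SLC2A1 the LMB+auxin point lies above the LMB point at every number.

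For the other 4 tested members the difference between the numbers did not pass the adjusted p. EGLN3, the prolyl hydroxylase that is itself a HIF target (ENSG00000129521, minus strand of chromosome 14 at 33924227 to 34462774), had 12.5, 13.3 and 10.8 CPM in LMB and 11.7, 12.3 and 10.9 CPM in LMB+auxin. Number 2 was highest and number 3 lowest in both groups, with a range of 0.24 that did not pass (edgeR adjusted p = 0.118). The group difference was -0.06 ± 0.11 (edgeR adjusted p = 0.966), and -0.06 ± 0.08 with the replicate block (adjusted p = 0.706). ADM, the vasodilator peptide adrenomedullin (ENSG00000148926, plus strand of chromosome 11 at 10305073 to 10307397), had 10.6, 8.46 and 8.29 CPM in LMB and 10.8, 9.20 and 10.5 CPM in LMB+auxin. Number 1 was highest in both groups, with a range of 0.28 (edgeR adjusted p = 0.084). Its group difference was 0.16 ± 0.13 (edgeR adjusted p = 0.954), and 0.16 ± 0.09 with the replicate block (adjusted p = 0.286).

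HIF1A, which encodes the regulated subunit itself (ENSG00000100644, plus strand of chromosome 14 at 61695513 to 61748259), was even across the libraries. It had 230.1, 221.1 and 240.5 CPM in LMB and 245.8, 224.9 and 239.3 CPM in LMB+auxin, and number 2 was the lowest in each group. Its range was 0.11 (edgeR adjusted p = 0.219). Its group difference was 0.04 ± 0.07 (edgeR adjusted p = 0.966), and 0.04 ± 0.04 with the replicate block (adjusted p = 0.672). ANKRD37 (ENSG00000186352, plus strand of chromosome 4 at 185396021 to 185400628) had 13.3, 12.9 and 13.4 CPM in LMB and 13.9, 13.6 and 13.3 CPM in LMB+auxin. Its range was 0.04 (edgeR adjusted p = 0.935). Its group difference was 0.04 ± 0.09 (edgeR adjusted p = 0.970), and 0.04 ± 0.08 with the replicate block (adjusted p = 0.799). ANKRD37 was the one tested member whose range between numbers was not wider than its group difference. Of the exonic bases of ANKRD37, 40.4% are shared with UFSP2 on the opposite strand, and the strand setting of the counting is not given in the sources used here, so reads of ANKRD37 and UFSP2 may not have been told apart.

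BNIP3 and CA9 stayed under the filter and were not tested. BNIP3, a mitophagy receptor of the BCL2 family (ENSG00000176171, minus strand of chromosome 10 at 131967684 to 131981967), had 14, 20 and 33 reads in LMB and 26, 30 and 31 reads in LMB+auxin, and only LMB+auxin replicate 2 exceeded 1 CPM. CA9, the carbonic anhydrase of the cell surface that is often used as a mark of hypoxic tumour cells (ENSG00000107159, plus strand of chromosome 9 at 35673928 to 35681159), had 1, 4 and 0 reads in LMB and 1, 5 and 0 reads in LMB+auxin. Of the exonic bases of CA9, 35.7% are shared with ARHGEF39 on the opposite strand, which averaged 880.5 reads, and the same limit applies. The 2 libraries above the floor of 3 reads were those of number 2, and at this depth no difference in CA9 was detectable.

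How the variation of each tested member divided between the numbers and the groups was described by its sums of squares on log2 CPM, where the number takes 2 degrees of freedom and the group 1. The share that went with the number was 98.8% for NDRG1, 89.9% for VEGFA, 86.1% for PDK1 and 84.2% for EGLN3. It was 73.2% for HIF1A and 55.8% for ADM, and for SLC2A1 it was 48.4% against 48.3% for the group. ANKRD37 had 25.2% with the number and 40.1% with the group. The median over the 8 members was 78.7% with the number and 10.7% with the group, beside medians of 61.1% and 13.0% over all tested genes.

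**Figure D2:**
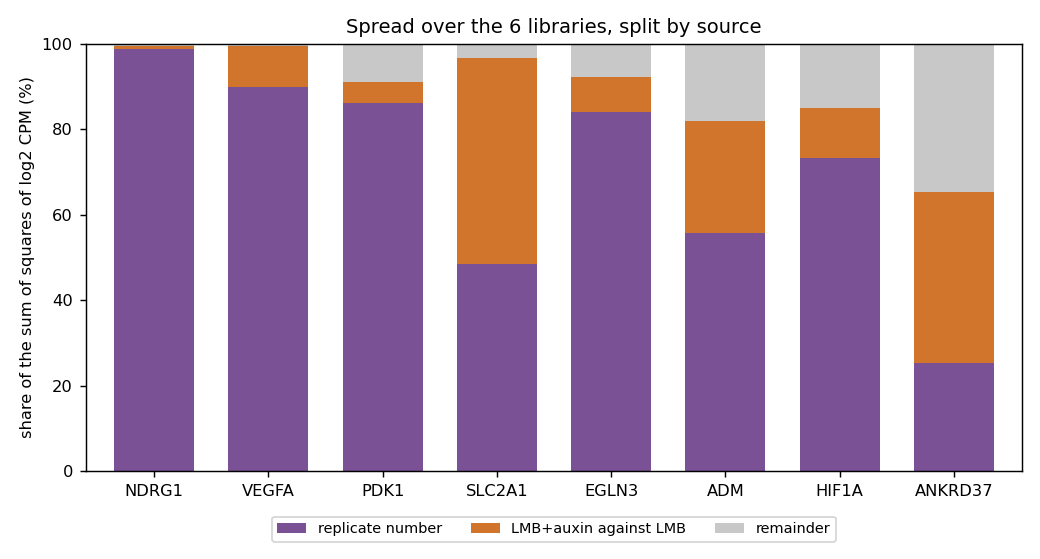
Share of the sum of squares of log2 CPM (y axis, percent) of each tested member (x axis) that goes with replicate number, with LMB+auxin against LMB and with neither, with 1 stacked bar per gene. NDRG1 has 98.8% with the number, and ANKRD37, with 25.2%, has the smallest such share.

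The range of the 3 number means was wider than the difference between the group means in 7 of the 8 members. It was wider in 81.7% of all tested genes too, so the count is near that of the whole transcriptome. The range is taken over 3 means of 2 libraries and the difference over 2 means of 3, so the 2 measures are not on equal terms. The median range was 0.26 on the log2 scale in the members and 0.213 over all genes. The median signed group difference was 0.04 in the members and -0.0027 over all genes. Rises and falls cancel in it, so it cannot be set against the range. Regardless of sign, the median group difference over all genes was 0.0823. In the members the sizes ran from 0.038 (HIF1A) to 0.175 (SLC2A1).

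**Figure D3:**
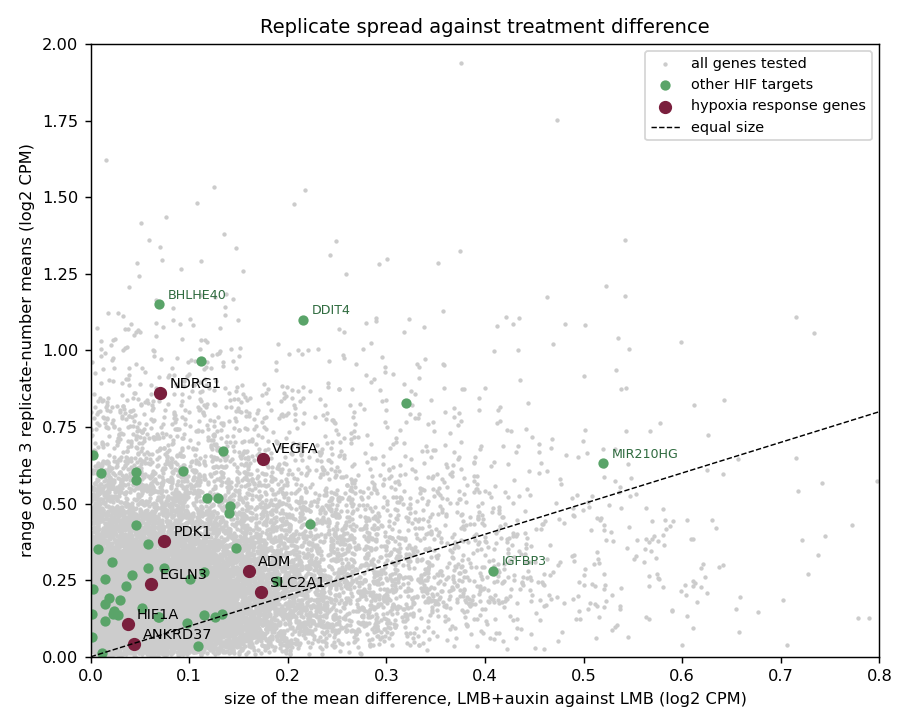
Range of the 3 replicate-number means (y axis, log2 CPM) against the size of the LMB+auxin minus LMB difference (x axis, log2 CPM) for all tested genes in grey, all but 1 of the other tested HIF targets and the named members, with a line of equality. 20 tested genes lie outside the axes. NDRG1, VEGFA and PDK1 lie far above the line and ANKRD37 just under it.

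Which number stood apart was read from pairwise contrasts in the same edgeR fit, which were added after the data had been seen. Of the 8 members, 2 (NDRG1 and VEGFA) were called between numbers 2 and 1, where 13.7% of all genes were called, and the same 2 between numbers 3 and 2, where 6.75% were. None was called between numbers 3 and 1, where 1.08% of all genes were, and the smallest adjusted p there was 0.0948, for VEGFA. Number 2 was highest in 5 of the 8 members and in 38.8% of all genes. It was lowest in 3 members (ADM, ANKRD37 and HIF1A) and in 42.8% of all genes. Both number 2 libraries lay above the other 4 in 3 members, NDRG1, VEGFA and PDK1, as they did in 21.6% of all genes. The 2 called members were both highest in number 2, as were 1388 of the 2432 genes called in all, while 933 were lowest there. The 1388 and the 933 are 8.18% and 5.5% of all tested genes. With both number 2 libraries left out, neither member was called, and the ranges were 0.05 for NDRG1 (edgeR adjusted p = 0.879) and 0.23 for VEGFA (adjusted p = 0.152).

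The number 2 libraries also differed in general features. In them the 50 genes with most reads held 16.7% and 16.4% of the counts, against 13.5% to 15% in the other 4, and protein-coding genes held 86.7% and 87.2% against 88.3% to 89.8%. Genes of high GC content were higher there. The median log2 difference of number 2 from the mean of numbers 1 and 3 was -0.072 in the fifth of genes with the lowest GC content and 0.055 in the fifth with the highest. NDRG1 and VEGFA have 52.1% and 54.6% GC and PDK1 has 39.5%. With a correction for GC content, added after the data had been seen, NDRG1, VEGFA and PDK1 were all called between numbers. In that fit 2394 genes were called in all, beside 2432 without the correction. The range of PDK1 was then 0.46 (edgeR adjusted p = 3.4e-06). ADM (range 0.37, edgeR adjusted p = 0.00458) and EGLN3 (0.24, adjusted p = 0.047) passed the adjusted p alone, which they did not without the correction. HIF1A and ANKRD37 still did not pass. The part of GC content and of the other features in the differences was not tested.

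The wider set of HIF targets from the 2 pathway lists, the members left out, had 52 genes, of which 50 were tested. Between the numbers 16 of the 50 were called, beside 14.3% of all genes. Of these 16, 15 were highest in number 2, beside 1388 of the 2432 genes called in all. By adjusted p alone 31 passed, beside 33.7% of all genes. The median range was 0.28, and the median difference of number 2 from the mean of the others was 0.17, against -0.01 over all genes. BHLHE40 and DDIT4 were among the called targets with the widest ranges.

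BHLHE40, a transcriptional repressor of the clock and of differentiation, had 3.54, 7.92 and 4.20 CPM in LMB and 3.38, 7.58 and 3.97 CPM in LMB+auxin, a range of 1.16 (edgeR adjusted p = 1.8e-12). DDIT4, an inhibitor of mTORC1 signalling, had 18.9, 37.4 and 17.1 CPM in LMB and 20.7, 43.8 and 20.8 CPM in LMB+auxin, a range of 1.10 (edgeR adjusted p = 4.3e-27). In both genes the number 2 libraries stood clearly above the other 4, and the groups overlapped.

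Of the 21 genes of glucose uptake and glycolysis, which include SLC2A1 and PDK1, 5 were called between the numbers, beside 14.3% of all genes. They were HK2, PFKL, PFKFB4, ALDOC and SLC16A3, all highest in number 2. By adjusted p alone 16 passed, beside 33.7% of all genes. Number 2 was highest in 19 of the 21, beside 38.8% of all genes. These are mostly shallow differences, with a median range of 0.22, close to the 0.213 of all genes.

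Between LMB+auxin and LMB none of the 50 other targets was called by edgeR without the block, where 0.00589% of all genes were. None reached an unadjusted p under 0.05, which 4.37% of all genes did. Among the largest fitted differences were those of MIR210HG, the host transcript of a microRNA induced by hypoxia, at -0.50 ± 0.23, and of the growth factor binding protein IGFBP3 at 0.45 ± 0.22 (edgeR adjusted p = 0.954 for each). MIR210HG had 4.61, 4.17 and 3.20 CPM in LMB and 3.21, 3.36 and 1.89 CPM in LMB+auxin. With the replicate block MIR210HG was called lower (-0.51, edgeR adjusted p = 0.0114), where 1.18% of all genes were called. By adjusted p alone SLC16A3 was also lower (-0.22, edgeR adjusted p = 0.0304), as were 3.25% of all genes. P4HA1 (0.19, edgeR adjusted p = 0.0335) and DDIT4 (0.22, adjusted p = 0.0305) were higher, as were 1.11% of all genes. SLC16A3 exports lactate and P4HA1 is a collagen prolyl hydroxylase.

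**Figure D4:**
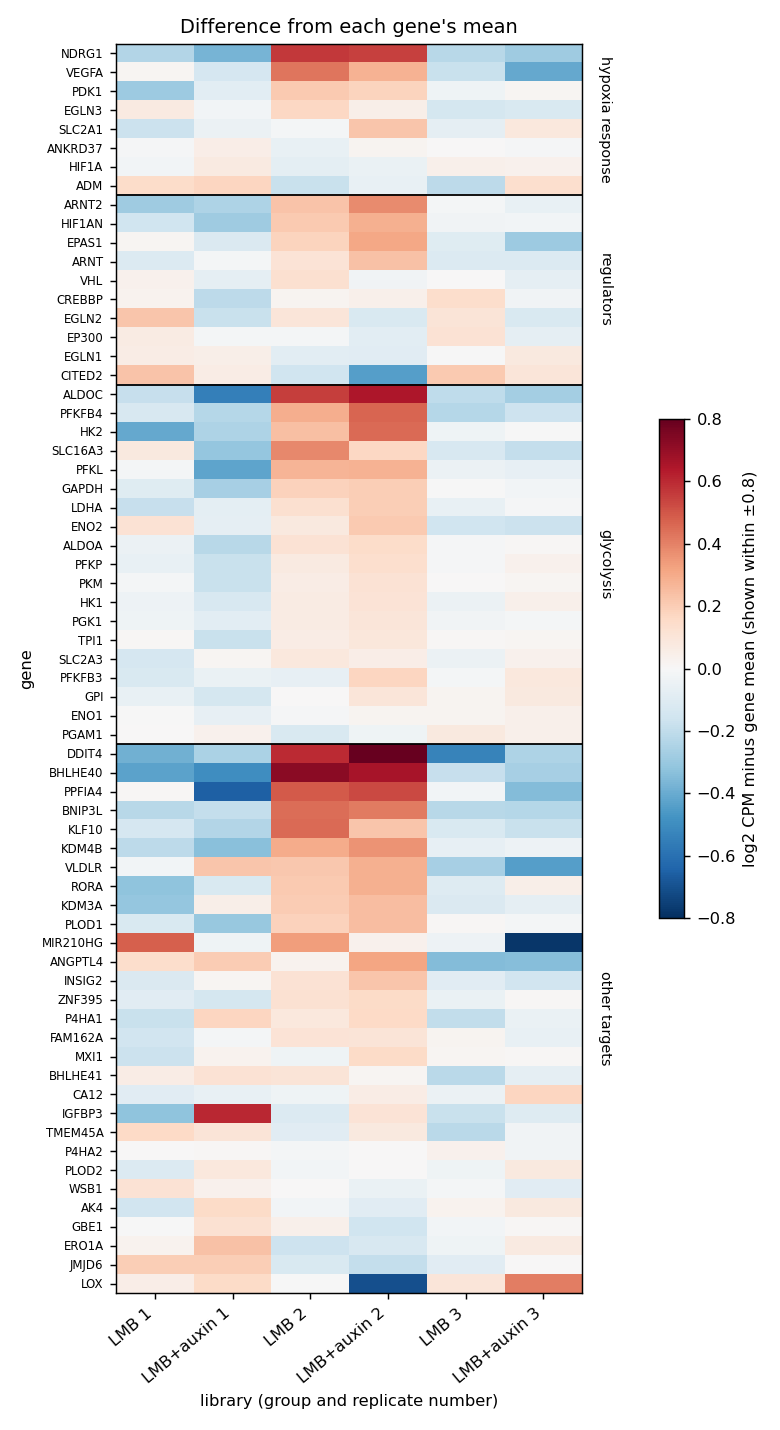
Log2 CPM of the tested members, HIF regulators and all but 1 of the other HIF targets (y axis, 1 line of the map per gene) in each of the 6 libraries (x axis), as the difference from the gene's mean over the libraries, with colours that saturate at 0.8 on either side. The 2 libraries of number 2 are the ones in which most of the called genes are high.

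The regulators of the pathway were split. Of 13 genes, HIF1A and EGLN3 among them, 12 were tested, and HIF3A stayed under the filter. Between the numbers 4 of the 12 were called, beside 14.3% of all genes. ARNT2, a partner of the α subunits, had a range of 0.57 (edgeR adjusted p = 1.8e-08). HIF1AN, the asparagine hydroxylase that blunts HIF activity, had a range of 0.47 (edgeR adjusted p = 1.3e-08), and EPAS1, which encodes HIF-2α, one of 0.44 (edgeR adjusted p = 5.9e-04). These 3 were highest in number 2.

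CITED2, which competes with HIF-1α for the coactivators EP300 and CREBBP, was lowest in number 2, with a range of 0.45 (edgeR adjusted p = 2.4e-09). It had 66.6, 50.8 and 65.7 CPM in LMB and 59.2, 41.8 and 60.7 CPM in LMB+auxin. ARNT, the common partner of the α subunits, passed the adjusted p with a range of 0.28 (edgeR adjusted p = 0.0023), below the fold. EGLN1, VHL, EP300 and CREBBP did not pass.

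None of the 12 regulators was called between LMB+auxin and LMB by edgeR without the block, where 0.00589% of all genes were called. Of them 1, EGLN2, had an unadjusted p under 0.05, beside 4.37% of all genes. With the block EGLN2, another prolyl hydroxylase, was lower by adjusted p alone, with 46.5, 42.7 and 42.9 CPM in LMB and 35.3, 36.6 and 36.6 CPM in LMB+auxin (difference -0.28, edgeR adjusted p = 5.6e-04), and its groups did not overlap, as in 11.5% of all genes. CITED2 was lower as well (-0.19, edgeR adjusted p = 0.0265), where 3.25% of all genes were lower by adjusted p alone. Both differences stayed below 1.3-fold.

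Genes of other lists also differed between the numbers. Of 14 tested ATF4 targets, genes of the amino acid and endoplasmic reticulum stress response, 10 were called between the numbers, beside 14.3% of all genes. All 10 were highest in number 2, as were 1388 of the 2432 genes called in all. The median range of the 14 was 0.57. That list shares VLDLR, STC2 and DDIT4 with the HIF targets, and VLDLR and DDIT4 are among the 10. Of 12 mitotic genes none was called between the numbers by edgeR. By adjusted p alone 9 passed, beside 33.7% of all genes, and 9 were lowest in number 2, beside 42.8% of all genes. Their median difference of number 2 from the others was -0.18. The genes whose profile over the 6 libraries came nearest to the mean of the tested members were SLC38A2, CLCN5, SERINC3, RAB8B and KDM4A, with root mean square differences of 0.0104 to 0.0218 in log2 CPM. Nearest to NDRG1 were HERPUD1, SESN3 and ENSG00000259171, at 0.0431, 0.0533 and 0.0595.

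**Figure D5:**
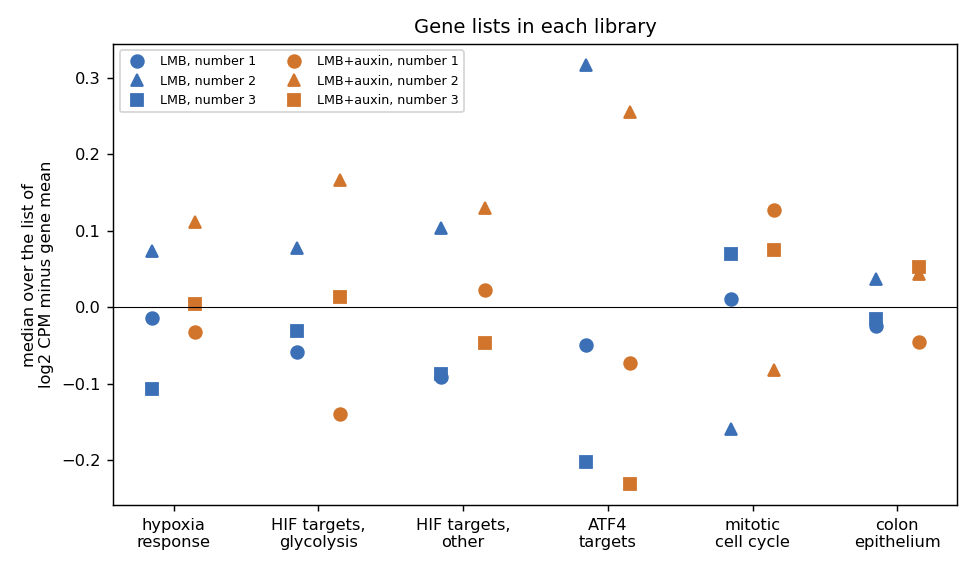
Median difference from the mean over libraries (y axis, log2 CPM) of the tested genes of each list (x axis), with 1 marker for each of the 6 libraries, coloured by group and shaped by replicate number. The ATF4 targets stand at 0.317 in LMB 2 and 0.256 in LMB+auxin 2, the members at 0.074 and 0.112, and the mitotic genes at -0.16 and -0.082.

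Total counts ran from 28261903 to 35992425 per library. Colon epithelial markers were present, with 8 of 9 tested and a summed level of 7533 to 8140 CPM, and 6 genes of leukocytes, endothelium, fibroblasts and liver summed to 1.31 to 2.03 CPM. In bulk RNA, fewer cells of a kind and less RNA per cell cannot be told apart. TPR RNA was 163.1, 157.2 and 180.4 CPM in LMB and 192.5, 185.0 and 186.8 CPM in LMB+auxin (difference 0.17 ± 0.07, edgeR adjusted p = 0.954, and 0.0136 with the block). Auxin removes the protein, so this is no check of the depletion.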

How the data were processed

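RNA-seq of 6 DLD-1 libraries was analysed from the deposited table of raw read counts per Ensembl gene. The study's methods describe removal of ribosomal RNA, stranded total RNA libraries and counting against Ensembl release 87 on GRCh38. The submitters' processing notes name CASAVA 1.8.2, STAR 2.6.1c and featureCounts 1.5.2. The strand setting of the counting is not given in the sources used here. Symbols were matched to 56948 of 58051 identifiers (98.1%) with GENCODE release 44, which also gave coordinates, exons and transcript lengths. FPKM values were computed here from CPM and the length of the canonical transcript.

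The members and gene lists were chosen with earlier results of these data known, and nothing here is independent of them. Named were all members and HIF regulators, the 3 other targets with the widest called range between numbers, the 3 with the largest group difference, the nearest profiles and TPR. Of these, 1 gene is not reported here. Others, such as glycolytic genes and targets that passed with the block, were named after their values were seen.

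Genes with CPM over 1 in at least 3 of 6 libraries were fitted with edgeR 4.0.16 in R 4.3.3 (TMM scaling, robust quasi-likelihood fit, 2-sided) and p-values were adjusted by Benjamini-Hochberg over all 16974 genes. LMB+auxin was compared with LMB without a block, as the study's methods name none. The replicate numbers were compared by an F test of 2 terms beside a treatment term. Log2 CPM used a prior count of 2. The numbers were taken to pair the libraries, because deviations from the group means correlated between same-numbered libraries at 0.531, 0.691 and 0.273, and at no more than 0.146 between different numbers.

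Total counts per library were 28261903 to 35992425. No 2 libraries of the same group agreed within sampling noise, and libraries of different groups were not compared in this way. The alternatives were DESeq2 size factors, upper-quartile scaling, library size alone, no filter, DESeq2 1.42.0, limma-voom (limma 3.58.1), the replicate block, no treatment term, prior counts of 0.5 and 5, each library and each number left out, and a GC correction (20 bins) added after the data were seen, as were the pairwise contrasts. The scripts were tested on simulated data.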

Additional observations from a re-analysis of the deposited data

How the results depend on the processing

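No member was called between LMB+auxin and LMB under any of the 14 alternatives. The genes called there numbered 1 with TMM scaling, 0 with library size alone (737 at an unadjusted p under 0.05), 39 with no filter, 11 with DESeq2, 201 with the replicate block (51 higher, 150 lower), 160 with the block and the GC correction (52 higher, 108 lower), and 0 to 5 with 1 library left out (5 without LMB+auxin replicate 2). The block changed no call of a member, though SLC2A1 then passed the adjusted p alone.

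Between the numbers 2432 genes were called, 1163 with DESeq2, 1592 with no treatment term and 155 to 2973 with libraries left out (155 without number 2, 1192 without number 1, 1496 without LMB+auxin replicate 2). NDRG1 and VEGFA were called in every alternative except without number 2, and the members called ran from 0 there to 4 without LMB+auxin replicate 1. PDK1, just under the fold threshold, was also called with DESeq2 size factors, no filter, the GC correction, any LMB+auxin library left out, or number 3 left out. ADM was called only without LMB+auxin replicate 1 (range 0.39, edgeR adjusted p = 0.0403). The count of members with a range wider than their group difference ran from 4 of 8 without number 2 to 8 of 8 with libraries left out, and was 9 of 10 with no filter.

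The direction of a group difference turned in 7 of 112 refits, all with 1 library left out and none called. Over the left-out libraries PDK1 ran from -0.051 to 0.201, VEGFA from -0.374 to 0.028, NDRG1 from -0.413 to 0.263 and EGLN3 from -0.148 to 0.012. The cause was not tested. With 3 libraries a group, differences of the size seen in the members could not be separated from the spread between numbers without the block, and CA9 and BNIP3 had too few reads for a test.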
